A study of Mus musculus with 16 samples.

Results

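Insulin-like growth factor (IGF) genes were compared between wild type and Vhl-deleted mouse tail tendon. The 10 genes were 2 ligands (Igf1, Igf2), 2 receptors (Igf1r, Igf2r) and 6 binding proteins (Igfbp2, Igfbp3, Igfbp4, Igfbp5, Igfbp6, Igfbp7), found by symbol among 25719 listed genes. Each of the 16 libraries holds whole tail tendon fascicles, the collagen strands pulled from the tail, with all cells of the tissue included. The 8 wild type libraries are labelled WT, and the 8 knockout libraries are labelled KO and described in the series as ScxCre;Vhlf/f, in which Cre recombinase driven by the tendon gene Scx acts on a floxed Vhl gene in Scx-lineage cells. Vhl marks the alpha subunits of the hypoxia-inducible factors (HIF) for degradation. The labels give neither age nor sex, and they do not say whether the wild type mice carried the Cre or the floxed allele. They do not state that each library came from a separate mouse either, so p-values measure the spread between these libraries.

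IGF1 and IGF2 are secreted peptides that act mainly through IGF1R, a receptor tyrosine kinase that signals through insulin receptor substrates to PI3K and AKT. IGF2R binds IGF2, takes it up for degradation and has no kinase domain. The binding proteins hold the ligands outside the cell, and proteases that cut them free the ligand. In tendon, IGF1 is known as a growth factor that promotes tenocyte proliferation and collagen synthesis.

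Of the 10 IGF genes, 9 differed between the genotypes, 5 with a higher and 4 with a lower level in the knockout (quasi-likelihood F test of edgeR, with p-values adjusted by the Benjamini-Hochberg method over all tested genes and a threshold of 0.05). The same test called 48.3% of all 14803 tested genes, 25.6% as higher and 22.7% as lower, so a call by itself was common in these data. The higher genes were Igf2, Igf1r, Igfbp2, Igfbp3 and Igfbp7, and the lower genes were Igf1, Igfbp4, Igfbp5 and Igfbp6. Igf2r did not pass the threshold. In 7 of the 10 genes the ranges of the 2 genotypes did not overlap, as in 19.4% of all tested genes. Igfbp2, Igfbp3, Igf1r and Igfbp7 were the 4 that lay wholly higher (background 10.8%), and Igfbp4, Igfbp5 and Igfbp6 the 3 that lay wholly lower (background 8.61%). The median absolute log2 fold change was 1.06 over the 10 genes and 0.25 over all tested genes. All 10 passed the filter on low counts.

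**Figure D1:**
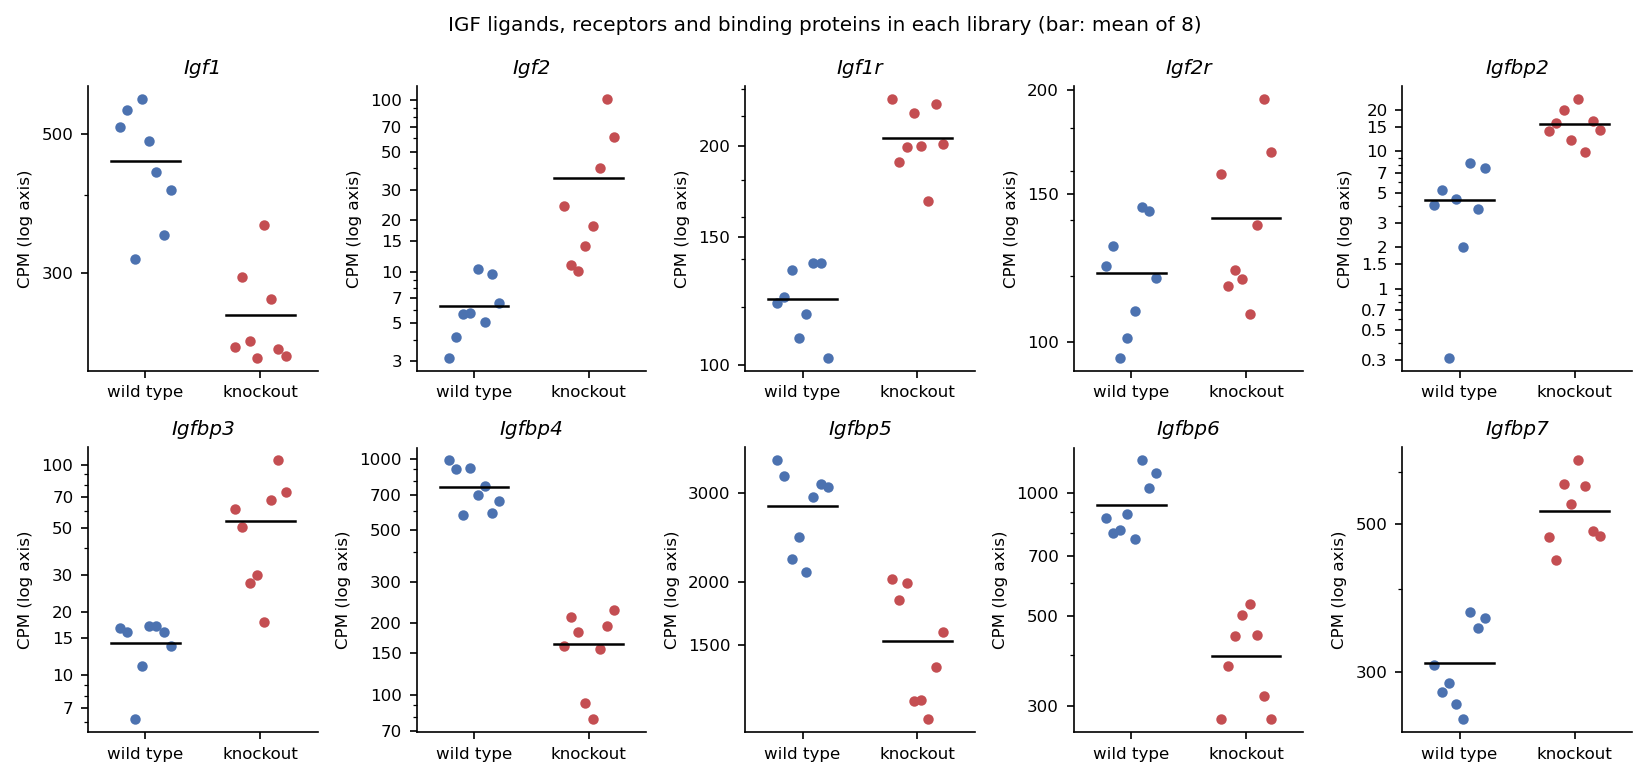
Level of each IGF gene in CPM (counts scaled to a common library size, log axis) in 8 wild type and 8 knockout libraries, 1 point per library, with a bar at the mean. Igfbp4, Igfbp5 and Igfbp6 are lower in every knockout library, while Igf2 spreads from 10.1 to 102 CPM within the knockout.

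Sequence upstream of the gene starts is shown for 4 binding proteins, since HIF binds a short core and these genes moved in opposite directions. Each line gives the 250 bases before the start in RefSeq (GRCm38.p6), 5′ to 3′ on the gene's strand, with capitals for each match to the core motifs ACGTG or GCGTG on either strand. The first 2 rose in the knockout and the last 2 fell.
Igfbp2 (chr1:72824230-72824479, plus strand): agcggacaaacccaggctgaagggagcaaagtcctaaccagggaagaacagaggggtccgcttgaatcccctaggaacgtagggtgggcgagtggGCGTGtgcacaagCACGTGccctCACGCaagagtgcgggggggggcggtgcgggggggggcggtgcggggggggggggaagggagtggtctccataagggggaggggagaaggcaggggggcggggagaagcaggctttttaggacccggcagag
Igfbp3 (chr11:7213924-7214173, minus strand): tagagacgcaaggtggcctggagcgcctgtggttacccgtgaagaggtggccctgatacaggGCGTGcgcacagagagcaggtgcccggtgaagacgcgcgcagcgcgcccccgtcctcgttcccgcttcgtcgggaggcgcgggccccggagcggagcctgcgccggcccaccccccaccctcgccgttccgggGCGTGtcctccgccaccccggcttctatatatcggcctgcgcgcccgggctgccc
Igfbp4 (chr11:99040994-99041243, plus strand): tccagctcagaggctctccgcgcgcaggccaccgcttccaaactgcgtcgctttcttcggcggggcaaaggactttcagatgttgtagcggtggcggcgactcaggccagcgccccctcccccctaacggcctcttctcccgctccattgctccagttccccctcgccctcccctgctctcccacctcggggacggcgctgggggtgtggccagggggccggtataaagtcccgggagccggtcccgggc
Igfbp6 (chr15:102143936-102144185, plus strand): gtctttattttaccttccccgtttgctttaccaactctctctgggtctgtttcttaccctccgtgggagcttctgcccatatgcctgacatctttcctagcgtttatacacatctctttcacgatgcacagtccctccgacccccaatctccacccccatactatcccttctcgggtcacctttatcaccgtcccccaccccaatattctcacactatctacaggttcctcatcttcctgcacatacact
Igfbp2 has 2 windows. The printed window held 4 matches, of which 2 overlap on opposite strands, and the other (chr1:72825137-72825386) held 0. The Igfbp3 window held 2. The windows of Igfbp4, Igfbp6 and Igfbp5 held none. At least 1 match lay upstream of Igf1, Igf2, Igf1r, Igf2r, Igfbp2, Igfbp3 and Igfbp7, which include the lower gene Igf1 and the uncalled gene Igf2r. For Igf2 only 1 of its 4 windows held a match. Over all 14 windows of the 10 genes, 7 held a match, against 38.6% of all 32851 windows of the table and 54.4% of the 13402 windows of tested genes. A match is a run of letters and not a measured binding site.

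Every library followed its genotype label at the targeted gene and at HIF targets. Vhl stood at 9.35 ± 1.25 CPM in knockout libraries and at 20.5 ± 3.69 CPM in wild type libraries (SD, n = 8; CPM are counts scaled to a common library size), without overlap, and the HIF targets Egln3 and Vegfa were higher by 6.08 and 4.04 on the log2 scale. Total counts ran from 10488355 to 18753254 in knockout tendon and from 10792900 to 16379401 in wild type tendon. Knockout libraries 5, 6 and 8 and wild type library 8 stood apart at Scx. They held 479 to 1251 CPM, against 54.5 to 140 CPM in the other 12 libraries. At the adjacent gene Bop1 they held 109 to 920 CPM. The other 7 wild type libraries had 20.7 to 35.4 CPM of Bop1 and the other 5 knockout libraries 62.3 to 84.0 CPM. Bop1 was thus higher in the knockout outside the 4 libraries too. Without these 4 libraries the same number of IGF genes passed, 5 higher and 4 lower. Genes of the Y chromosome exceeded 3 counts in 2 libraries of each genotype. Tenocyte markers were abundant in every library, with a summed level of 130878 to 380895 CPM in wild type tendon and 77587 to 181187 CPM in knockout tendon, and 6 of 9 were lower and 1 higher in knockout tendon. Endothelial markers went the other way: 7 of 9 tested were higher, and their summed level was 41.3 to 59.4 CPM in wild type tendon and 63.5 to 589 CPM in knockout tendon. Mural markers were higher in 6 and lower in 1 of 8 tested, with sums of 213 to 289 CPM (wild type) and 248 to 1456 CPM (knockout). Erythroid markers were higher in 5 of 5, with sums of 15.1 to 50.7 CPM (wild type) and 77.8 to 562 CPM (knockout). Skeletal muscle markers spread widely in both genotypes, with sums of 52.0 to 4606 CPM (wild type) and 152 to 8936 CPM (knockout). Of these 13 markers 1 was higher and 0 lower, and of 9 macrophage markers 2 were higher and 0 lower. Over all tested genes 25.6% were higher and 22.7% lower. In whole tissue, fewer cells of a type and less RNA per cell cannot be told apart.

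The ligands changed in opposite directions. On the counts listed for each gene, Igf1 (ENSMUSG00000020053, chromosome 10) had the higher level of the 2 ligands in every library when scaled per kilobase of exon. Its wild type level had a lowest value of 317, a median of 461 and a highest value of 569 CPM, and its knockout level had a lowest value of 220, a median of 231 and a highest value of 358 CPM. In 7 of 8 knockout libraries it lay under the whole wild type range. The exception was knockout library 5, which exceeded wild type libraries 3 and 7. Igf1 fell from 453 ± 92.7 to 257 ± 49.2 CPM (SD, n = 8), a log2 difference of -0.82 (SE 0.132, edgeR adjusted p = 3.75e-05).

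Igf2 (ENSMUSG00000048583, chromosome 7), an imprinted growth factor gene that is strongly expressed before birth, was low in the wild type. Wild type libraries held 3.14 to 10.4 CPM with a median of 5.71, and knockout libraries 10.1 to 102 CPM with a median of 21.3. The knockout values were 24.2, 10.9, 10.1, 14.1, 18.3, 40.3, 102 and 60.6 CPM in libraries 1 to 8. Of these, 7 lay above the whole wild type range, and libraries 6, 7 and 8 were the highest. The mean rose from 6.31 ± 2.55 to 35.0 ± 32.0 CPM, a log2 difference of 2.48 (SE 0.510, edgeR adjusted p = 8.75e-04). A fit without knockout libraries 6, 7 and 8, which had the highest endothelial scores, was added after the data were seen. The log2 difference was then 1.30 (edgeR adjusted p = 0.00103), so the increase was called with the other 5 knockout libraries too but was smaller. Those 5 libraries still had endothelial scores of 2.30 to 4.14 (mean log2 CPM), all above the wild type range of 1.32 to 2.08. This fit therefore cannot separate genotype from the endothelial score. With the skeletal muscle score as a covariate the log2 difference of Igf2 was 1.61 (edgeR adjusted p = 0.00174).

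The Igf2 count carries a second limit. In the GENCODE M21 annotation of GRCm38, 62.8% of the exon bases of Igf2 are shared with Gm49394, a protein-coding gene model on the same strand that the files list separately. In each library the Gm49394 count was between 93.5% and 104% of the Igf2 count, so reads of Igf2 appear under both names and the absolute level of Igf2 is uncertain. Per kilobase of exon, Igf2 reached 2.57% ± 1.30 of the Igf1 level in wild type tendon and 25.3% ± 25.1 in knockout tendon (SD, n = 8), from 6.35% in knockout library 2 to 77.4% in knockout library 7. These percentages use the count listed under Igf2, so the order of the ligands in knockout library 7 is uncertain.

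The receptors did not move alike. Igf1r (ENSMUSG00000005533, chromosome 7), the signalling receptor of both ligands, had wild type values of 102 to 138 CPM (median 123) and knockout values of 168 to 233 CPM (median 201). All 8 knockout libraries lay above all wild type libraries, with little spread inside either group. The mean rose from 123 ± 13.5 to 205 ± 21.6 CPM, by 0.74 on the log2 scale (SE 0.0795, edgeR adjusted p = 2.51e-07). Igf2r (ENSMUSG00000023830, chromosome 17), which clears IGF2 and sorts lysosomal enzymes, ran from 95.7 to 145 CPM (median 121) in wild type tendon and from 108 to 195 CPM (median 130) in knockout tendon. The ranges overlapped in most libraries, and only knockout libraries 1, 7 and 8 lay above the wild type. The log2 difference of 0.22 (SE 0.122, edgeR adjusted p = 0.142) did not pass. It did with libraries scaled to total counts alone, at 0.54 (edgeR adjusted p = 4.70e-04), a scaling that also moved the median of all tested genes from 0.02 to 0.32.

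**Figure D2:**
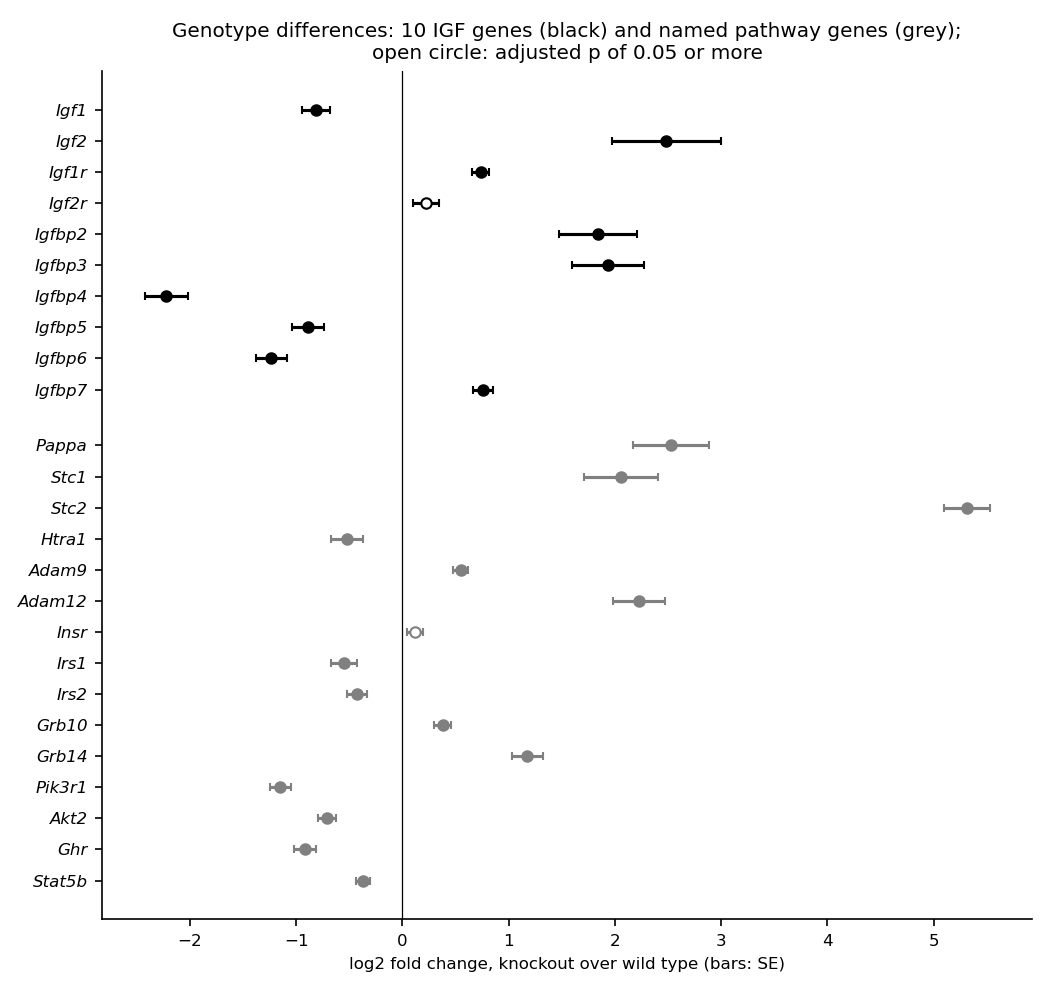
Log2 fold change of knockout over wild type with its SE (bars) for the 10 IGF genes (black) and the named pathway genes (grey), from the edgeR fit over 8 against 8 libraries. The IGF genes run from -2.22 for Igfbp4 to 2.48 for Igf2, and Stc2 lies furthest right at 5.31.

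The 3 binding proteins that fell were among the 4 with the highest level per kilobase in the wild type. Igfbp4 (ENSMUSG00000017493, chromosome 11), an inhibitory binding protein, had the largest decrease among the 10 genes. It ran from 575 to 981 CPM (median 735) in wild type tendon and from 78.4 to 228 CPM (median 172) in knockout tendon. The highest knockout library was thus well below the lowest wild type library. Igfbp4 was 4.66-fold lower, from 761 ± 155 to 163 ± 54.0 CPM (SD, n = 8; log2 difference -2.22, SE 0.206, edgeR adjusted p = 6.47e-08). Knockout libraries 4 and 5 were the lowest, at 92.0 and 78.4 CPM.

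Igfbp6 (ENSMUSG00000023046, chromosome 15), which binds IGF2 in preference to IGF1, fell from 936 ± 162 to 398 ± 99.9 CPM (log2 difference -1.24, SE 0.146, edgeR adjusted p = 8.35e-07). Its wild type libraries held 770 to 1204 CPM (median 877) and its knockout libraries 278 to 535 CPM (median 411). Igfbp5 (ENSMUSG00000026185, chromosome 1) encodes a binding protein that attaches to extracellular matrix. It ran from 2087 to 3470 CPM (median 3007) in wild type tendon and from 1070 to 2025 CPM (median 1476) in knockout tendon, with a narrow gap between the groups. The log2 difference was -0.89 (SE 0.152, edgeR adjusted p = 7.37e-05).

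Igfbp7, Igfbp3 and Igfbp2 rose. Igfbp7 (ENSMUSG00000036256, chromosome 5), a relative with low affinity for IGFs, was abundant in both genotypes. It rose from 310 ± 44.6 to 524 ± 61.9 CPM (log2 difference 0.76, SE 0.0950, edgeR adjusted p = 1.72e-06), with wild type libraries at 254 to 369 CPM (median 298) and knockout libraries at 442 to 624 CPM (median 512). In the annotation 7.03% of its exon bases overlap Polr2b on the other strand, so its count carries a small uncertainty.

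Igfbp3 (ENSMUSG00000020427, chromosome 11), the main carrier of IGFs in blood, had 6.16 to 17.2 CPM in wild type tendon and 17.9 to 105 CPM (median 55.9) in knockout tendon. The groups did not overlap, though knockout library 5 lay just above the highest wild type library, at 17.9 against 17.2 CPM. Igfbp3 rose 3.83-fold (log2 difference 1.94, SE 0.337, edgeR adjusted p = 1.89e-04). Igfbp2 (ENSMUSG00000039323, chromosome 1), which binds both IGFs and integrins, held 0.312 to 8.18 CPM (median 4.25) in wild type tendon and 9.94 to 24.1 CPM (median 15.2) in knockout tendon. It rose 3.58-fold (log2 difference 1.84, SE 0.370, edgeR adjusted p = 6.00e-04). Its lowest wild type value, in library 3, rests on 4 reads. Igfbp2 and Igfbp5 lie on chromosome 1 on opposite strands, with upstream windows at chr1:72824230-72824479 and chr1:72874866-72875115 (GRCm38.p6), and changed in opposite directions.

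Compared between genes as CPM per kilobase of exon, the order of levels in the wild type was Igfbp6 (842 ± 145), Igfbp5 (470 ± 84.3), Igfbp7 (256 ± 36.9), Igfbp4 (172 ± 35.2), Igf1 (45.7 ± 9.36), Igf2r (13.0 ± 1.96), Igf1r (7.34 ± 0.805), Igfbp3 (4.55 ± 1.24), Igfbp2 (2.41 ± 1.41) and Igf2 (1.10 ± 0.445; SD, n = 8). Neighbours whose library ranges overlapped were Igfbp7 and Igfbp4, Igfbp3 and Igfbp2, and Igfbp2 and Igf2. In the knockout the order began with Igfbp7 (434 ± 51.2), Igfbp6 (358 ± 89.8) and Igfbp5 (254 ± 64.7), followed by Igfbp4 (37.0 ± 12.2) and Igf1 (26.0 ± 4.97). Then came Igfbp3 (17.3 ± 9.21), Igf2r (15.1 ± 3.28), Igf1r (12.2 ± 1.29), Igfbp2 (8.61 ± 2.44) and Igf2 (6.12 ± 5.59). All neighbours in the knockout order overlapped except Igfbp5 and Igfbp4. With the longest transcript as the length, Igf1r moved ahead of Igf2r in the knockout.

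The make-up of the binding protein transcripts shifted accordingly. Of the summed CPM per kilobase of the 6 genes, Igfbp6 made up 48.1% ± 3.80 in wild type tendon and 32.0% ± 6.09 in knockout tendon (SD, n = 8), and its ranges did not overlap. Igfbp7 made up 14.7% ± 0.958 and 39.1% ± 2.77, and it had the largest share in knockout libraries 1, 2, 3, 5, 6, 7 and 8. Igfbp4 went from 9.98% ± 2.23 to 3.41% ± 1.29. Igfbp3 and Igfbp2 stayed small, with means of 1.63% and 0.773% in knockout tendon against 0.261% and 0.131% in wild type tendon. The share of Igfbp5 overlapped, at 23.7% to 31.7% in wild type tendon and 15.9% to 32.2% in knockout tendon. The sum itself was 1747 ± 231 CPM per kilobase in wild type tendon and 1108 ± 99.1 in knockout tendon. It is on the TMM scale and was not computed with total counts. Scaling to total counts moved the median log2 difference of the 10 IGF genes from 0.48 to 0.79, so the size of the fall depends on the scaling. These shares are descriptions with no test of their own.

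**Figure D3:**
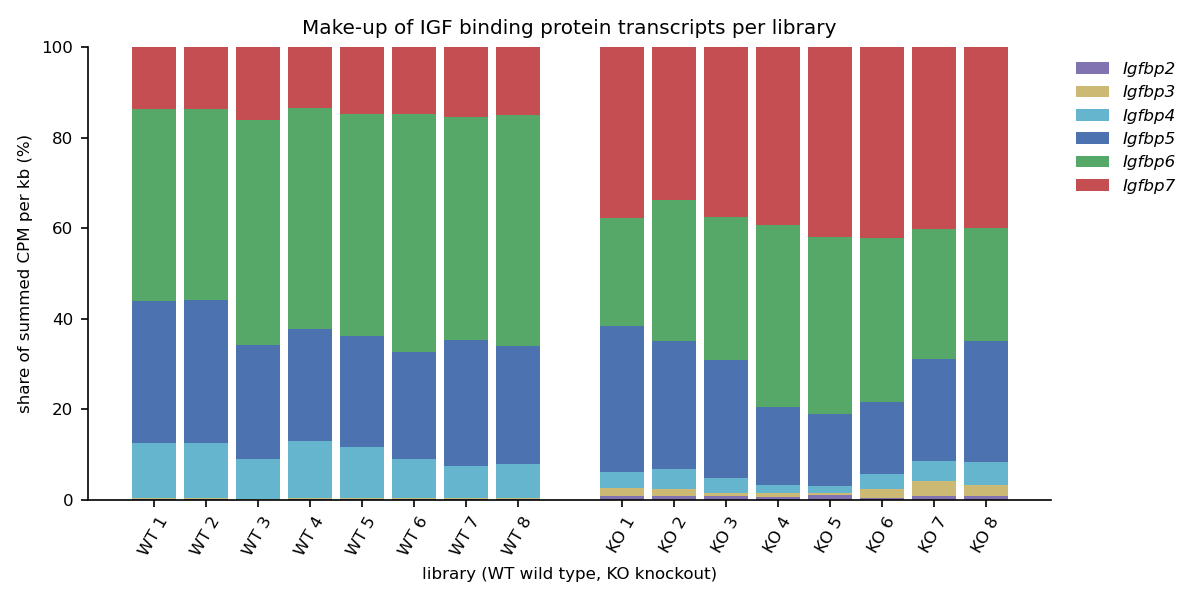
Share (%) of each binding protein in the summed CPM per kilobase of the 6 Igfbp genes, 1 stacked bar per library (WT wild type, KO knockout). The Igfbp7 share (top) is 13.5% to 16.2% in wild type tendon and 33.7% to 42.3% in knockout tendon.

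Other genes of IGF transport, release and signalling came from a list of 42 genes, of which 35 were tested and 24 passed, 11 higher and 13 lower in the knockout, where the test called 48.3% of all tested genes (25.6% higher, 22.7% lower). Their median log2 fold change was 0.00, against 0.02 over all tested genes. With total counts 28 passed, 22 higher and 6 lower, where 65.4% of all tested genes passed (55.9% higher, 9.56% lower), so the split of this list depended on the scaling. The 3 other carrier genes were not tested. Igfbp1, a binding protein made mainly in liver, had 0 counts in all 16 libraries, where 3 counts correspond to 0.145 to 0.336 CPM. Igfals, which encodes the acid-labile subunit of the complex in blood, had at most 0.928 CPM in any library, and Igfbpl1 had 3 counts in all.

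Among proteases that cut IGF binding proteins and the inhibitors of those proteases, 6 of 7 tested genes were higher and 1 lower. Over all tested genes 25.6% were higher and 22.7% lower. With total counts 6 were higher too, where 55.9% of all tested genes were higher. The inhibitor gene Stc2 encodes stanniocalcin 2, which blocks the protease PAPP-A. Wild type libraries held 1.29 to 3.90 CPM (median 2.36) and knockout libraries 74.5 to 132 CPM (median 102). Stc2 was 39.8-fold higher (log2 difference 5.31, SE 0.214, edgeR adjusted p = 1.38e-12), with a wide gap between the groups. Stc1, the related inhibitor, rose from 0.992 ± 0.452 to 4.11 ± 2.34 CPM (log2 difference 2.06, edgeR adjusted p = 7.23e-05), and by 1.41 without knockout libraries 6, 7 and 8. Pappa, whose product PAPP-A cuts IGFBP4 when IGF is bound, held 0.224 to 2.18 CPM in wild type tendon and 2.27 to 9.12 CPM in knockout tendon (log2 difference 2.53, SE 0.355, edgeR adjusted p = 1.01e-05). The lowest wild type value rests on 2 reads. Both the protease and its inhibitors were thus higher at the RNA level, and their balance at the protein level was not measured.

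Of the other proteases, Adam12, whose product cuts IGFBP3 and IGFBP5, rose from 15.7 ± 7.14 to 73.4 ± 12.0 CPM (log2 difference 2.23, SE 0.246, edgeR adjusted p = 1.21e-06). Adam9 rose from 104 ± 6.90 to 153 ± 17.6 CPM (0.55, edgeR adjusted p = 2.15e-06). The knockout and wild type ranges of Stc1, Stc2, Pappa, Adam9 and Adam12 did not overlap. Pappa2, named after its values were seen, differed by 0.79 (edgeR adjusted p = 0.00457) with overlapping ranges. It lost the threshold without the 4 libraries high in Scx (0.66, edgeR adjusted p = 0.0611) and without knockout libraries 6, 7 and 8 (0.63, edgeR adjusted p = 0.0574). Htra1, a secreted serine protease that cuts IGFBP5, went the other way, from 389 ± 92.9 to 271 ± 47.0 CPM (-0.52, SE 0.149, edgeR adjusted p = 0.00720), and its call was lost under 5 of 30 alternatives.

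**Figure D4:**
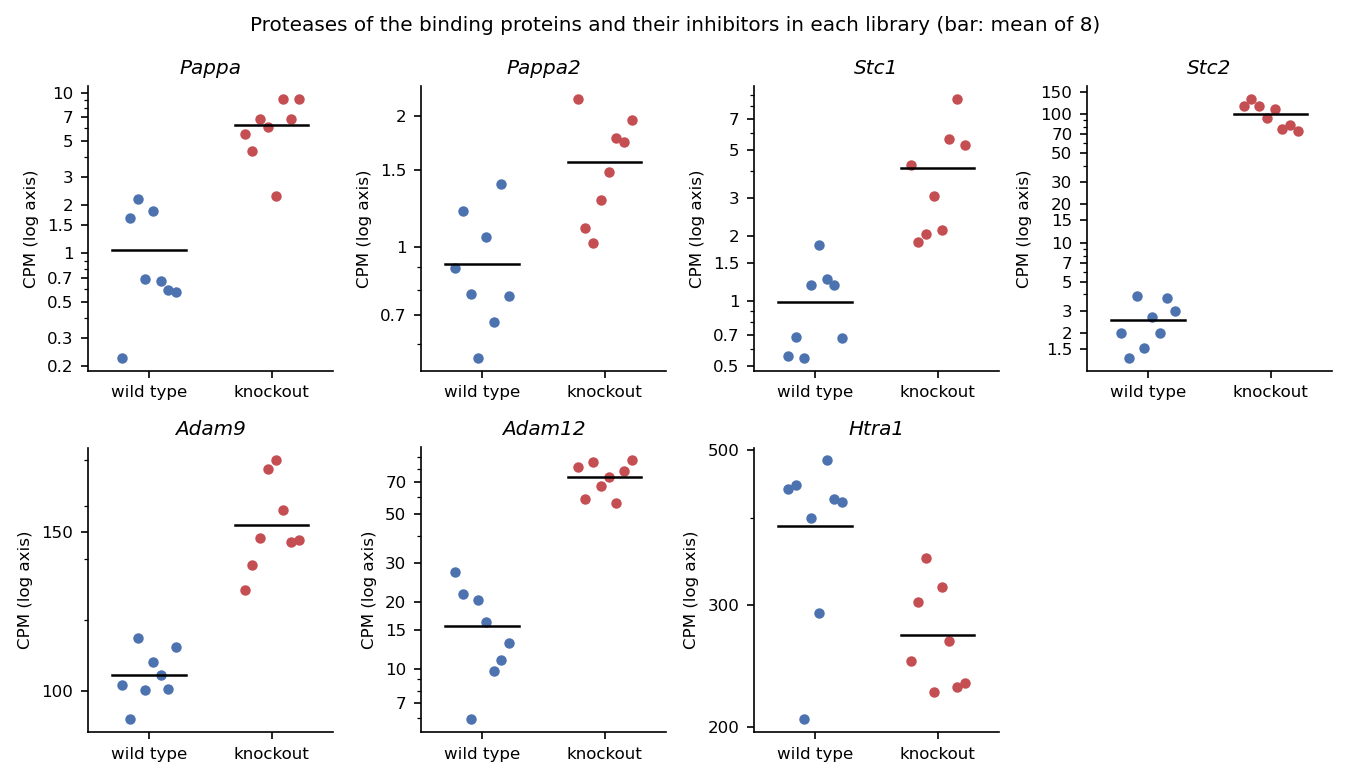
Level in CPM (log axis) of the proteases that cut IGF binding proteins and of their inhibitors Stc1 and Stc2, 1 point per library with a bar at the mean of 8. Stc2 is at 74.5 to 132 CPM in knockout tendon and at 1.29 to 3.90 CPM in wild type tendon, whereas Htra1 overlaps and is lower in knockout tendon on average.

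In the receptor family and its adaptors, 2 of 8 tested genes were higher and 2 lower, a share near the 48.3% called over all tested genes. With total counts 6 were higher, where 55.9% of all tested genes were. Insr, the insulin receptor gene, had 90.7 ± 8.48 CPM in wild type tendon and 98.4 ± 12.1 CPM in knockout tendon, a log2 difference of 0.12 (SE 0.0774, edgeR adjusted p = 0.219), and passed with total counts alone, at 0.43. Irs1 and Irs2 encode the main docking proteins below IGF1R. Irs1 fell from 251 ± 28.0 to 172 ± 38.7 CPM (-0.55, edgeR adjusted p = 0.00102) and Irs2 from 60.5 ± 6.66 to 45.0 ± 7.07 CPM (-0.43, edgeR adjusted p = 6.98e-04). With total counts neither passed, at -0.24 and -0.13. Exons of Irs1 overlap Gm9747 on the other strand over 30.9% of their bases, so its count is uncertain. The adaptors Grb14 and Grb10, which dampen insulin and IGF receptor signalling, rose by 1.17 (edgeR adjusted p = 1.56e-06) and 0.38 (edgeR adjusted p = 6.63e-04), both without overlap. Grb14 was low, at 5.79 ± 0.824 CPM in wild type tendon and 13.1 ± 3.28 CPM in knockout tendon.

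Of 13 genes of the PI3K, AKT and FOXO steps, 2 were higher and 6 lower on the TMM scale, and 7 were higher and 4 lower with total counts. Over all tested genes 25.6% were higher and 22.7% lower on the TMM scale, and 55.9% and 9.56% with total counts. Pik3r1, which encodes the regulatory subunit p85 alpha, fell from 753 ± 114 to 339 ± 36.4 CPM (log2 difference -1.15, SE 0.0963, edgeR adjusted p = 7.55e-09). Akt2 fell from 181 ± 25.2 to 111 ± 10.3 CPM (-0.71, edgeR adjusted p = 7.92e-07). In both genes no knockout library reached the wild type range. Pik3cb, named after its values were seen, was higher (0.61, edgeR adjusted p = 4.20e-04), and Foxo1, likewise named afterwards, was lower (-0.62, edgeR adjusted p = 7.88e-04).

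Growth hormone induces Igf1 through its receptor, JAK2 and STAT5. Of the 5 genes of this axis, 3 were lower and 2 did not pass, while with total counts 2 were higher and 2 lower. The shares over all tested genes were 22.7% lower with TMM, and 55.9% higher and 9.56% lower with total counts. Ghr, the growth hormone receptor gene, fell from 231 ± 41.8 to 122 ± 12.4 CPM (log2 difference -0.92, SE 0.101, edgeR adjusted p = 3.17e-07), with wild type libraries at 169 to 305 CPM and knockout libraries at 105 to 140 CPM. Stat5b fell from 58.7 ± 3.62 to 45.4 ± 4.57 CPM (-0.37, edgeR adjusted p = 9.23e-05), but differed by -0.07 with total counts (edgeR adjusted p = 0.467). Socs2, a feedback inhibitor of this axis named after its values were seen, fell from 29.7 ± 6.21 to 16.5 ± 3.66 CPM (-0.84, edgeR adjusted p = 7.64e-05). Among the IGF2 mRNA binding proteins, Igf2bp3 was higher by 0.23 (edgeR adjusted p = 0.0407) and Igf2bp2 differed by -0.22 (edgeR adjusted p = 0.0435). Both were named after their values were seen, and their calls were lost or turned in 17 and 15 of 30 alternatives.

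The IGF genes were set against the endothelial marker score, the mean log2 CPM of 9 tested endothelial genes, which was 1.32 to 2.08 in wild type tendon and 2.30 to 5.61 in knockout tendon. Within the knockout, Igf2 had a Pearson correlation of 0.91 with the score (n = 8, exact permutation p = 0.00228, adjusted 0.0913 over 40 relations) and a Spearman correlation of 0.90 (exact p = 0.00456, adjusted 0.0608). Without the 2 libraries farthest from the median score r was 0.86. Igf2r had r = 0.83 and rho = 0.79 (exact permutation p = 0.0162 and 0.0279, adjusted 0.108 and 0.160), and 0.73 without those 2 libraries. Igfbp3 had r = 0.72 and rho = 0.79 (exact permutation p = 0.0493 and 0.0279, adjusted 0.204 and 0.160), and 0.88 without them. No relation with the endothelial score passed after adjustment. Within the wild type, Igf2 had r = 0.79 and rho = 0.88 (exact permutation p = 0.0137 and 0.00724, adjusted 0.108 and 0.0724), and 0.86 without the 2 farthest libraries. The same knockout libraries 6, 7 and 8 had the highest mural scores and formed a separate cluster in the skeletal muscle score, at 8.20 to 8.77 against 2.89 to 5.67 in the other 5 (mean log2 CPM). Their adipocyte scores, from 2 tested markers, were also the highest of the knockout, at 3.95 to 4.72 against 1.53 to 3.48. Of the 40 relations, only that of Igf2r with the muscle score within the knockout passed after adjustment, by rank (rho = 0.98, n = 8, exact permutation p = 3.97e-04, adjusted 0.0159). Its Pearson correlation did not pass (r = 0.87, exact permutation p = 0.00980, adjusted 0.0980), and was 0.70 without the 2 libraries farthest from the median (exact permutation p = 0.119). In the 5 libraries outside the cluster, Igf2r was 108, 117, 119, 122 and 159 CPM in ascending order of the muscle score. The corresponding rank correlations of Igfbp3 and Igf2 were 0.90 and 0.79 (exact permutation p = 0.00456 and 0.0279, adjusted 0.0608 and 0.160). The part of endothelial, mural, adipocyte or muscle RNA in the level of Igf2, Igf2r and Igfbp3 was not tested beyond the fits given above. The fit without knockout libraries 6, 7 and 8 cannot test the endothelial part, since the genotypes still did not overlap in that score. Igfbp3 differed by 1.39 without knockout libraries 6, 7 and 8, and still passed.

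**Figure D5:**
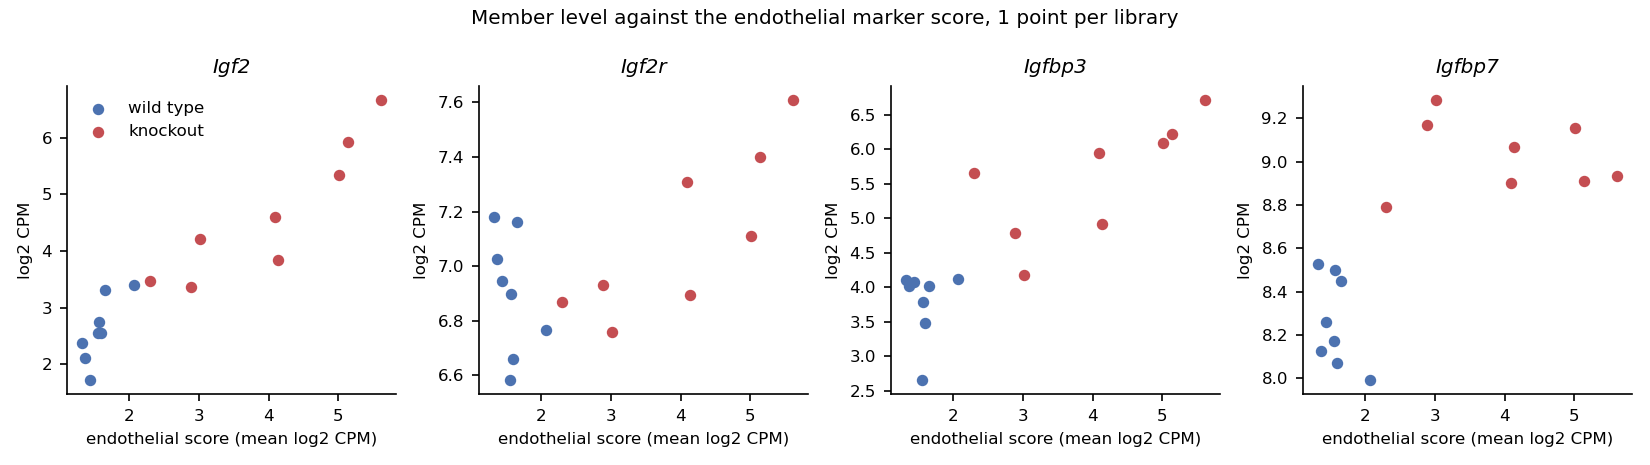
Log2 CPM of Igf2, Igf2r, Igfbp3 and Igfbp7 against the endothelial score (mean log2 CPM of 9 markers), 1 point per library, coloured by genotype. Within the knockout (n = 8) Igf2 has r = 0.91 (exact permutation p = 0.00228, adjusted 0.0913, which does not pass) and Igfbp7 has r = -0.12 (exact permutation p = 0.780).

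After subtracting the mean of each genotype, IGF genes also varied together over the 16 libraries. Both genes of a pair are read from the same libraries and share their depth and tissue make-up. The strongest pairs were Igf2r with Igfbp3 (Pearson r = 0.83) and Igfbp6 with Igfbp7 (r = 0.80). Igfbp6 and Igfbp7 thus varied in the same direction within genotypes although Igfbp6 fell and Igfbp7 rose between them. Igfbp4 and Igfbp6, which both fell, had r = -0.60, the lowest of the 45 pairs. Among the 13417 genes compared, the one most like Igf2r was Insr (r = 0.93), followed by Itga3 (0.90) and Pdzd2 (0.90). For Igf2 they were Gm49394, whose reads are largely the same, Palmd (0.93) and Map3k20 (0.93). For Igfbp2 they were C1qtnf6 (0.96), the HIF target Car9 (0.92) and Mpzl1 (0.92). Igfbp2 in wild type library 3 lay at -1.11 log2 CPM on 4 reads, against 1.12 to 3.06 in the other wild type libraries. That low value can weigh heavily in these 3 correlations, which were not computed without it. C1qtnf6 was lower in the knockout (log2 difference -2.37) and Car9 higher (6.40), so likeness within genotypes did not go with one direction between them.

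The nearest genes of the other 7, by the same measure, were Slc30a7 (0.94), Gps1 (0.93) and Slc31a1 (0.91) for Igf1, and Wasf2 (0.90), Wdr90 (0.88) and Zfp646 (0.87) for Igf1r. Those of Igfbp3 were Man2a2 (0.88), Dcaf6 (0.86) and Mfap4 (0.85), and those of Igfbp4 were Igdcc4 (0.93), Ppm1l (0.89) and Gaa (0.86). Crispld2 (0.91), Mrc2 (0.90) and Tpcn1 (0.89) were nearest to Igfbp5, Sdf4 (0.93), Eif3g (0.93) and Itm2b (0.93) to Igfbp6, and Tpgs1 (0.91), Ino80b (0.88) and Pdpn (0.88) to Igfbp7. Igdcc4 and Ppm1l fell with Igfbp4 (-0.92 and -1.03), and Crispld2 with Igfbp5 (-1.88).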

How the data were processed

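RNA from 16 libraries was sequenced, and the deposited files hold raw counts per gene and library, per the file headers. Per the submitters' processing notes kallisto, featureCounts and GRCm39 were used, with no role given. The annotation and the strand used in counting are not given in the sources used here. Of 25719 gene identifiers, 25614 were matched to a symbol. No 2 libraries of a genotype differed by counting error alone, since the lowest chi-square per degree of freedom between them was 6.56. This cannot tell whether 2 libraries came from the same mouse.

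Genotypes, taken from the titles, were compared in edgeR 4.0.16 (R 4.3.3) with the robust quasi-likelihood F test, TMM scaling, its default filter and genotype as the only term. The test is two-sided, with Benjamini-Hochberg adjustment over 14803 tested genes. CPM uses TMM-scaled library sizes, and log2 CPM a prior count of 2. Lengths come from GENCODE M21. Correlations used exact permutation over all pairings. The fit was tested on simulated counts. The floor of 3 counts covers counting error only. Each SE is the absolute log2 fold change over the root of the F statistic, so it includes the spread between libraries.

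The IGF genes, the pathway lists and the marker lists were chosen with earlier results of these data known. Named were the 10 IGF genes, and pathway genes past the threshold without overlap or with an absolute log2 fold change of at least 1, plus Insr, Irs1, Irs2, Pappa, Igfbp1 and Htra1. A few listed genes enter the counts only and are otherwise not reported here. For each IGF gene the 3 most correlated genes were named, among tested genes with a mean log2 CPM of at least 1. Vhl, Egln3 and Vegfa served as label checks. Alternatives were DESeq2 1.42.0 (size factors, Wald test), total counts, TMM without the 20 most abundant genes, other filters, limma 3.58.1 voom, other dispersions, a 1.2-fold test, covariates, the replicate block and left-out libraries. Leaving out knockout libraries 6, 7 and 8, those with the highest endothelial scores, was added after the data were seen.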

Additional observations from a re-analysis of the deposited data

Results flagged for a closer look

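In 2 of 68 checks of 8 libraries each, a single library stood apart from the others of its genotype, where about 1 in 20 checks (3.40) would by chance. Both concerned wild type library 3. Igfbp2 was lowest there at -1.11 log2 CPM, against 1.12 in the library nearest to it, and this value rests on 4 reads. Igfbp3 was lowest there at 2.66 log2 CPM, against 3.48 in the nearest other library. Without that library Igfbp2 and Igfbp3 kept their calls.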

How the results depend on the processing

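Of 300 values of the 10 IGF genes under 30 alternatives each, 299 kept direction and call. The exception was Igf2r with total counts. A test against a 1.2-fold change called 4236 genes in place of 7151, and total counts called 9685, 85.4% of them higher against 53.0% on the TMM scale. Under every alternative 9 IGF genes passed, or 10 with total counts. Igf2bp2 turned to 0.0900 with total counts. The cause was not tested. With the replicate block 7010 genes, 9 IGF genes and 21 pathway genes passed. The block ended the call of Htra1 (edgeR adjusted p = 0.0502) and those of Igf2bp2 and Igf2bp3. Libraries with the same number did not pair, with correlations from -0.40 to 0.39, and 2 of 16 libraries correlated best with their own number. Leaving out 1 library at a time kept Igf2 between 2.02 and 2.62. Igfbp2, Pappa, Pappa2 and Stc1 have fewer than 10 reads in at least 1 library, which limits their folds.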
